A study of Mus musculus with 14 samples.

Results

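Endothelial genes were followed through the prostate populations that the Sca-1 antigen separates. The set holds 39 genes that textbook knowledge assigns to the endothelium, and it was chosen with earlier results of these data known. All 39 lie on the array. They are 39 of the 17136 genes tested and of the 18193 genes that the platform annotation names. Counts of called members beside shares of all genes are thus a description, not a test of an independent set. A gene was read at its probe set of highest mean signal over the 14 arrays. The sorted populations were Sca-1Hi (3 arrays), Sca-1Lo (4 arrays) and Sca-1Neg (4 arrays), taken by flow cytometry from the part of the prostatic ducts nearest the urethra of adult male mice (C57BL/6 in the methods, C57BL in the labels, which give an age of 6 to 8 weeks). UGE, the epithelium of the urogenital sinus of C57BL/6 embryos at day 16, was isolated with no Sca-1 sort stated (3 arrays). The gates were set by the fluorescence of Sca-1, and no second antigen is named for the sort. No transgene or treatment is named, and a depletion of endothelial or blood cells before the sort is not stated. Each array is a sample of its own, and nothing states that replicates came from separate animals, so that p-values measure the spread between these samples only.

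The endothelium lines blood and lymph vessels. Its cells are joined by a cadherin and claudins of their own, and they depend on VEGF receptors and on the receptor Tek (Tie2) with its partner Tie1, while ETS and SOX transcription factors keep their program active. Sca-1 is not restricted to epithelial stem cells, since the antigen is also known from the endothelium of many mouse tissues.

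Promoters of members that moved together are shown for the defining genes Kdr, Tek and Tie1, because ETS factors, among them the members Erg and Fli1, bind a core of the letters GGAA. RefSeq (GRCm38.p6) gave a promoter for 21 of the 39 members, among them Lyl1 and Prox1, which did not move with the others. In the 250 bases before the start, read on both strands, the letters CAGGAA stood in 11 of the 21 promoters (52.4%) and in 25.4% of the 27024 promoters of all genes. For CCGGAA these numbers were 3 of 21 (14.3%) and 12.2%. Capitals mark CAGGAA or CCGGAA on either strand, 5′ to 3′.
Kdr, chr5:75978456-75978705, minus strand: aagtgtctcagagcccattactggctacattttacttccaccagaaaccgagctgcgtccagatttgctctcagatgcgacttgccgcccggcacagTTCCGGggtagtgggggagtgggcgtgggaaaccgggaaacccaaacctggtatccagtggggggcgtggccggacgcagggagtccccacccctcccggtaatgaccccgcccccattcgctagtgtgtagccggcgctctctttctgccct
Tek, chr4:94739039-94739288, plus strand: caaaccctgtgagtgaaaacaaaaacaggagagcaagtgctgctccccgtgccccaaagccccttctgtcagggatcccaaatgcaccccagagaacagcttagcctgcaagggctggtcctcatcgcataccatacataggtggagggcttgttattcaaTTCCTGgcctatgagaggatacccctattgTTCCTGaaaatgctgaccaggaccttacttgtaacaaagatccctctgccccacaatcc
Tie1, chr4:118489850-118490099, minus strand: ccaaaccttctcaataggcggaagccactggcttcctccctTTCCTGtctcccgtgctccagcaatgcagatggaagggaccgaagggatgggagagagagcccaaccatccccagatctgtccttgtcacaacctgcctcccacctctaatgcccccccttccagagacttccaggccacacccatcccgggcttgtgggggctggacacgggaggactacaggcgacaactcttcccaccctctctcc
Kdr held CCGGAA once, its first base 153 bases before the start. Tek held CAGGAA 89 and 59 bases before the start, and Tie1 held it 209 bases before the start. The start used lay 617 bases from the 5′ end of the RefSeq gene for Kdr, 203 for Tek and 0 for Tie1. The other letters searched were GGAA alone (19 of 21 members, 90.5%, against 93.4% of all promoters), CAGGAAG (6 of 21, 28.6%, against 10.5%) and ACAGGAA (6 of 21, 28.6%, against 7.03%), which overlap CAGGAA, and AGATAA (1 of 21, 4.76%, against 10.2%), TATAAA (2 of 21, 9.52%, against 13%) and ATTGTT (3 of 21, 14.3%, against 9.62%). A match of letters is not a bound site.

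Signals below are PLIER values on a linear scale, in which a level can be set against the same gene on another array but not against another gene. Sums over a list are set only against the same list on other arrays, and lean on its genes of highest signal. The sorted antigen itself followed the gates. Ly6a, the gene of Sca-1, read 150.2 to 262 on the UGE arrays, 9358 to 10878 on the Sca-1Hi arrays and 3129.5 to 8505 on the Sca-1Lo arrays, against 342 to 856 on the Sca-1Neg arrays, with no overlap between these ranges. The median signal of all probe sets ran from 64.3 to 81.0 over the arrays. The ratio of 3′ to 5′ signal of Gapdh, a sign of RNA quality, was 1.83 to 2.38 on the log2 scale in UGE, 3.07 to 3.48 in Sca-1Hi and 1.98 to 3.22 in Sca-1Lo, against 1.66 to 2.75 in Sca-1Neg. The Sca-1Hi range lay above those of UGE and Sca-1Neg and overlapped that of Sca-1Lo. The same ratio of Actb overlapped between all groups, with 1.54 to 2.09 in UGE, 1.59 to 2.77 in Sca-1Hi and 1.72 to 2.27 in Sca-1Lo, against 1.17 to 2.11 in Sca-1Neg. Their part in the results was not tested. UGE replicate 1 stood apart from the other UGE arrays, with the highest of the 3 signals for 37 of the 39 members. Its median member signal was 47.1, against 16.1 and 19.6 on UGE replicates 2 and 3.

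Endothelial genes were high in both Sca-1 positive gates and low in Sca-1Neg and UGE. Calls rest on limma and need an adjusted p (Benjamini-Hochberg, over all probe sets tested) below 0.05 and a log2 difference of more than 0.81 in size. Of the 39 members, 33 were called higher in Sca-1Hi than in Sca-1Neg, where 6.11% of all genes tested were. In Sca-1Lo 29 were called higher than in Sca-1Neg, with 1.68% of all genes. Under the methods' t-test, fitted to 2 groups at a time, 18 members were called in Sca-1Hi and 0 in Sca-1Lo. None was called lower in either comparison, in which all 39 differences of Sca-1Hi and 38 of Sca-1Lo were above 0. The median log2 difference of the members from Sca-1Neg was 3.46 in Sca-1Hi and 2.79 in Sca-1Lo, beside 0.03 and 0.08 over all genes. Every Sca-1Hi array lay above every Sca-1Neg array for 34 members (12.3% of all genes), and every Sca-1Lo array did so for 32 (4.21%). Both comparisons use the same 4 Sca-1Neg arrays. In bulk samples such as these, fewer cells of a type and less RNA per cell cannot be told apart.

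**Figure D1:**
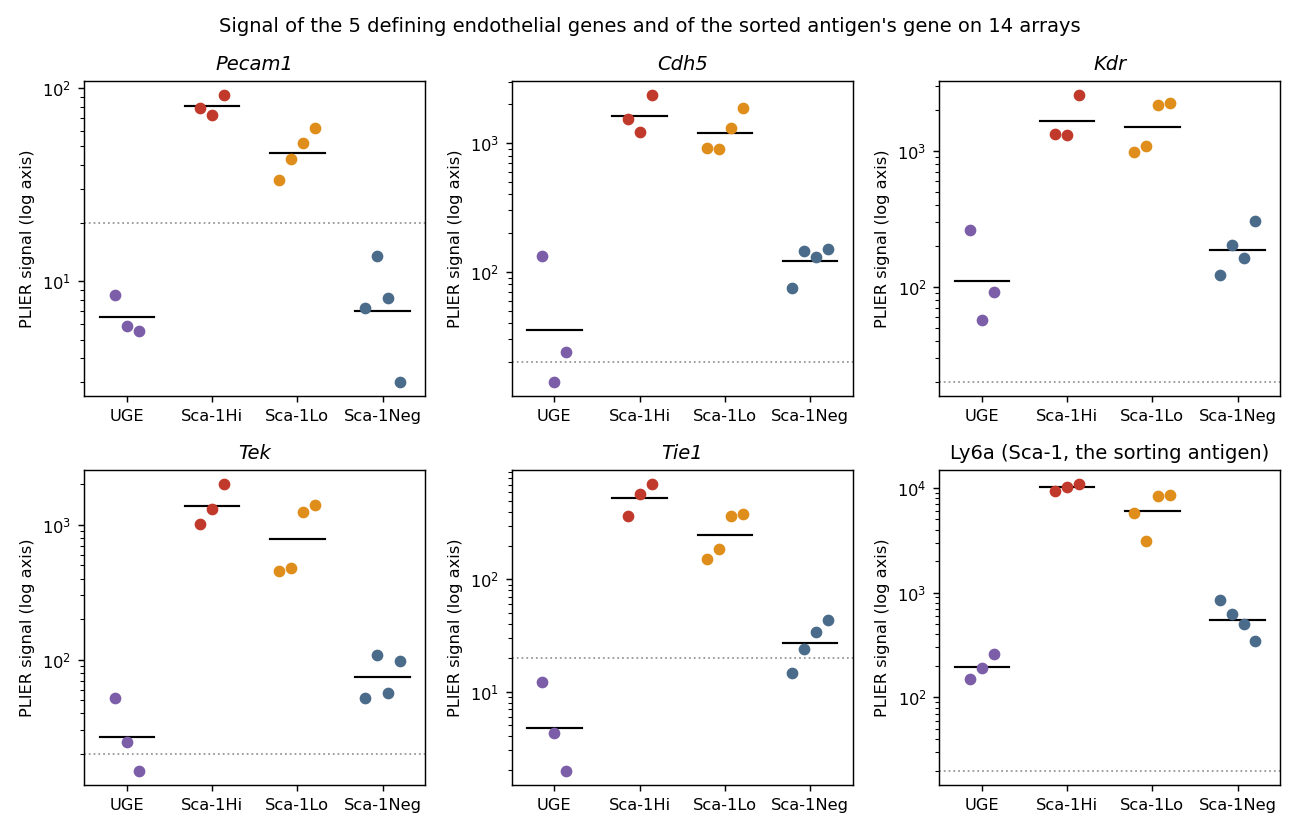
PLIER signal (log axis) of 5 genes that define the endothelium and of Ly6a in UGE, Sca-1Hi, Sca-1Lo and Sca-1Neg. Points are arrays, black lines are means of the log2 signals, and the dotted line marks the signal of 20. All Sca-1Hi and Sca-1Lo points lie above all Sca-1Neg points in each panel.

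The junction and surface genes came first, with 8 of 9 called higher in each gate. Cdh5 encodes VE-cadherin, the cadherin of endothelial junctions. It read 1536, 1221 and 2351 in Sca-1Hi samples and 911, 902, 1308 and 1869.6 in Sca-1Lo samples, against 75.3, 146, 131 and 152 in Sca-1Neg samples. It was 13.5-fold higher in Sca-1Hi (adjusted p = 0.00184) and 9.78-fold higher in Sca-1Lo (adjusted p = 0.0098), with log2 differences of 3.75 ± 0.60 and 3.29 ± 0.55 (SE). Its other probe set was not called in either gate (log2 differences of 0.22, adjusted p = 0.827, and 0.25, adjusted p = 0.907). Pecam1 (CD31), a surface molecule of endothelial contacts, gave low signals at its probe set, with 78.7, 72.7 and 91.8 in Sca-1Hi samples and 33.3, 43.2, 52.3 and 61.9 in Sca-1Lo samples, against 7.31, 13.6, 8.20 and 3.02 in Sca-1Neg samples. Sca-1Neg lay below 20 throughout, so the change is a bound, set with every signal raised to at least 20, and Pecam1 was at least 4.04-fold higher in Sca-1Hi (adjusted p = 2.51e-04) and at least 2.32-fold higher in Sca-1Lo (adjusted p = 0.00295).

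Cldn5, the main claudin of endothelial tight junctions, read 2727, 4443 and 4278 in Sca-1Hi samples and 601, 667, 1789 and 1726 in Sca-1Lo samples, against 95.3, 163, 96.6 and 210.4 in Sca-1Neg samples. No Sca-1 positive array overlapped the Sca-1Neg range, and Cldn5 was 28.0-fold higher in Sca-1Hi (adjusted p = 1.22e-04) and 7.92-fold higher in Sca-1Lo (adjusted p = 0.00634). Icam2, a ligand of leukocyte integrins that endothelium carries at rest, read 702, 694 and 782 in Sca-1Hi samples and 276, 261, 490.2 and 487 in Sca-1Lo samples, against 57.6, 97.0, 55.1 and 72.6 in Sca-1Neg samples, and was 10.5-fold higher in Sca-1Hi (adjusted p = 0.00181) and 5.26-fold higher in Sca-1Lo (adjusted p = 0.0277). Emcn, a sialomucin of capillary and venous endothelium, read 676, 1259.5 and 1561 in Sca-1Hi samples and 351, 415, 802 and 855 in Sca-1Lo samples, against 58.7, 98.5, 75.5 and 78.5 in Sca-1Neg samples. It was 14.4-fold higher in Sca-1Hi (adjusted p = 1.64e-04) and 7.34-fold higher in Sca-1Lo (adjusted p = 0.00242). Without overlap between the gates and Sca-1Neg, these genes shared the pattern of Cdh5.

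Cd34, a sialomucin of vessel endothelium and of blood progenitors, read 1065, 1698 and 3131 in Sca-1Hi samples and 646, 608, 2737 and 3817 in Sca-1Lo samples, against 149, 175, 179.5 and 195 in Sca-1Neg samples. Its Sca-1Lo signals fell into a low and a high pair, and it was 10.3-fold higher in Sca-1Hi (adjusted p = 0.00447) and 8.19-fold higher in Sca-1Lo (adjusted p = 0.0173). Clec14a, an endothelial lectin, read 752, 669 and 995 in Sca-1Hi samples and 346, 378, 549 and 609 in Sca-1Lo samples, against 48.0, 102, 70.2 and 55.6 in Sca-1Neg samples, which was 12.0-fold higher in Sca-1Hi (adjusted p = 4.02e-05) and 6.93-fold higher in Sca-1Lo (adjusted p = 4.90e-04). Mmrn2, a matrix protein that binds Clec14a and Cd93, read 2652, 2610.4 and 3431 in Sca-1Hi samples and 1439.5, 955, 2472 and 2434 in Sca-1Lo samples, against 121, 211, 196 and 178 in Sca-1Neg samples. It was 16.6-fold higher in Sca-1Hi (adjusted p = 5.97e-04) and 9.82-fold higher in Sca-1Lo (adjusted p = 0.00481).

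Esam was the exception among the junction genes. This adhesion molecule of endothelial tight junctions read 1843, 2138 and 3475 in Sca-1Hi samples and 1182, 1153, 1821 and 2136 in Sca-1Lo samples, against 972, 798, 555 and 3027 in Sca-1Neg samples. Sca-1Neg replicate 4 lay within the Sca-1Hi range and above all Sca-1Lo arrays, and Esam was not called, with log2 differences of 1.16 ± 0.51 in Sca-1Hi (adjusted p = 0.152) and 0.51 ± 0.47 in Sca-1Lo (adjusted p = 0.734). Without that array the difference in Sca-1Hi was 1.66 ± 0.40 and was called (adjusted p = 0.0238), while that in Sca-1Lo was 1.01 (adjusted p = 0.266). On Sca-1Neg replicate 4 the summed signal of 11 pericyte and smooth muscle markers was 99141, against 28516 to 42008 on the other Sca-1Neg arrays, that of 8 fibroblast markers 35669, against 10617 to 15475, and that of 6 platelet and megakaryocyte markers 376, against 369 to 1199. Their part in the Esam signal was not tested.

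Of the 6 VEGF and Tie receptor genes 5 were called higher in each gate. Kdr encodes VEGF receptor 2, the main signalling receptor of VEGF-A, and read 1338, 1316 and 2579 in Sca-1Hi samples and 981, 1087, 2179 and 2253 in Sca-1Lo samples, against 123, 205, 164 and 304 in Sca-1Neg samples. It was 8.81-fold higher in Sca-1Hi (adjusted p = 0.00204) and 8.05-fold higher in Sca-1Lo (adjusted p = 0.00613). Flt1, VEGF receptor 1, which binds VEGF-A tightly and limits its action, read 1385, 1782 and 2682 in Sca-1Hi samples and 706, 613, 1791 and 1867 in Sca-1Lo samples, against 59.2, 112, 101 and 99.7 in Sca-1Neg samples. It was 20.8-fold higher in Sca-1Hi (adjusted p = 2.68e-04) and 12.2-fold higher in Sca-1Lo (adjusted p = 0.0021). Neither gate overlapped Sca-1Neg for either receptor.

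Tek (Tie2), the receptor of the angiopoietins, read 1012, 1315 and 2005 in Sca-1Hi samples and 458, 478, 1251 and 1392 in Sca-1Lo samples, against 52.5, 108, 57.2 and 98.3 in Sca-1Neg samples. It was 18.5-fold higher in Sca-1Hi (adjusted p = 3.19e-04) and 10.5-fold higher in Sca-1Lo (adjusted p = 0.00281). Its partner Tie1 read 364, 580.5 and 707 in Sca-1Hi samples and 153, 186, 369 and 379.7 in Sca-1Lo samples, against 14.6, 23.9, 34.2 and 43.8 in Sca-1Neg samples, and was 19.7-fold higher in Sca-1Hi (adjusted p = 5.83e-04) and 9.35-fold higher in Sca-1Lo (adjusted p = 0.00765). Ptprb (VE-PTP), the phosphatase that acts on Tek and on VE-cadherin, read 1757, 1940.5 and 2628 in Sca-1Hi samples and 736, 566, 1421 and 1773 in Sca-1Lo samples, against 71.5, 109.7, 74.2 and 86.7 in Sca-1Neg samples. It was 24.6-fold higher in Sca-1Hi (adjusted p = 7.06e-05) and 12.0-fold higher in Sca-1Lo (adjusted p = 9.69e-04). In all of these the lowest Sca-1 positive array exceeded the highest Sca-1Neg array.

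Flt4, VEGF receptor 3, is known mainly from lymphatic endothelium. It read 109, 85.7 and 156 in Sca-1Hi samples and 89.0, 85.8, 136 and 154 in Sca-1Lo samples, against 34.0, 71.3, 27.2 and 149.7 in Sca-1Neg samples, and again Sca-1Neg replicate 4 reached the range of the gates. Its log2 differences of 1.02 ± 0.49 in Sca-1Hi (adjusted p = 0.193) and 1.0 ± 0.46 in Sca-1Lo (adjusted p = 0.351) were not called. Without Sca-1Neg replicate 4 they were 1.49 ± 0.40 (adjusted p = 0.0359, called) and 1.48 ± 0.37 (adjusted p = 0.082, not called).

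**Figure D2:**
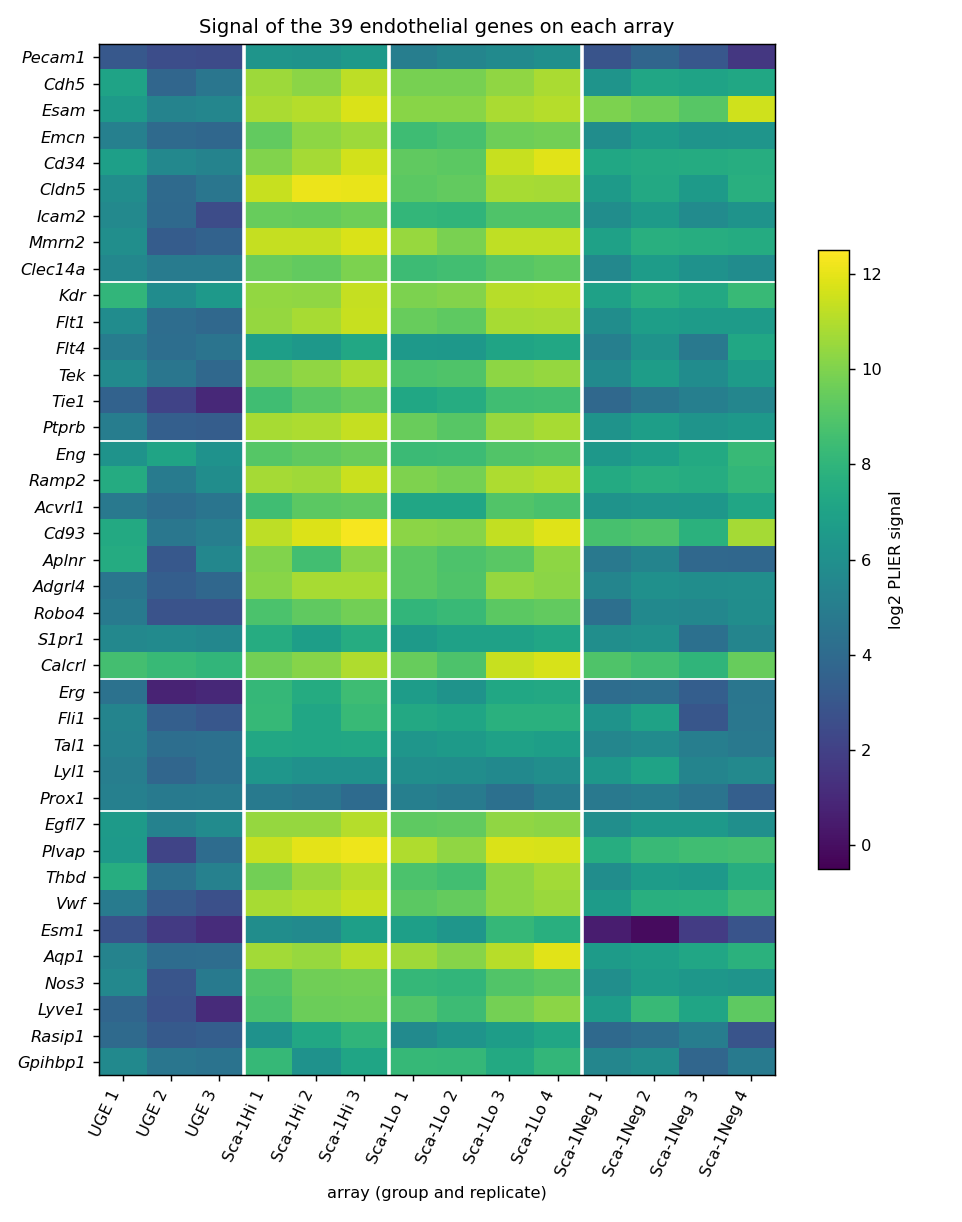
Log2 PLIER signal (colour) of the 39 endothelial genes (rows, in blocks by role) on the 14 arrays (columns, by group and replicate, with white lines between groups). The Sca-1Hi and Sca-1Lo columns are bright for most genes, the UGE and Sca-1Neg columns are dark, and Esam, Cd93 and Calcrl are bright in Sca-1Neg replicate 4.

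Among 9 other receptors 8 were called higher in Sca-1Hi and 5 in Sca-1Lo. Aplnr, the apelin receptor, read 1046, 374 and 1226 in Sca-1Hi samples and 588, 476, 577 and 1253 in Sca-1Lo samples, against 27.2, 41.9, 14.6 and 14.2 in Sca-1Neg samples. With 35.5-fold in Sca-1Hi (adjusted p = 0.00161) and 30.4-fold in Sca-1Lo (adjusted p = 0.00488) it had the highest fold in Sca-1Hi of the 39 members.. Adgrl4 (Eltd1), an orphan adhesion receptor of endothelium, read 1182, 1797 and 1782 in Sca-1Hi samples and 596, 479, 1376 and 1211 in Sca-1Lo samples, against 42.9, 64.4, 59.5 and 60.0 in Sca-1Neg samples. It was 27.8-fold higher in Sca-1Hi (adjusted p = 3.15e-05) and 14.8-fold higher in Sca-1Lo (adjusted p = 4.55e-04). Robo4, a roundabout receptor of vessels, read 459, 634 and 864 in Sca-1Hi samples and 270.5, 319.9, 589 and 657 in Sca-1Lo samples, against 19.2, 51.6, 45.5 and 59.4 in Sca-1Neg samples, and was 15.6-fold higher in Sca-1Hi (adjusted p = 6.85e-04) and 10.6-fold higher in Sca-1Lo (adjusted p = 0.00385). Each gate lay clear of Sca-1Neg in these genes.

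Ramp2 and Calcrl together form the adrenomedullin receptor. Ramp2 read 1725, 1618 and 2862 in Sca-1Hi samples and 1001, 868, 1938 and 2225 in Sca-1Lo samples, against 176, 208, 186 and 275 in Sca-1Neg samples. It was 9.61-fold higher in Sca-1Hi (adjusted p = 0.00172) and 6.69-fold higher in Sca-1Lo (adjusted p = 0.0111). Calcrl read 845, 1136 and 1980.2 in Sca-1Hi samples and 716, 475, 2728 and 3306 in Sca-1Lo samples, against 479, 379, 259 and 724 in Sca-1Neg samples, and its log2 differences of 1.53 ± 0.61 in Sca-1Hi (adjusted p = 0.115) and 1.62 ± 0.56 in Sca-1Lo (adjusted p = 0.184) were not called. The Calcrl signals of Sca-1Hi lay above those of Sca-1Neg, while those of Sca-1Lo overlapped them, with both partners high on the same Sca-1Lo arrays, replicates 3 and 4. S1pr1, a receptor of sphingosine 1-phosphate that vessels need to mature, read 190.4, 112 and 185 in Sca-1Hi samples and 96.5, 124, 121 and 144 in Sca-1Lo samples, against 61.2, 67.0, 19.4 and 43.3 in Sca-1Neg samples. It was 3.67-fold higher in Sca-1Hi (adjusted p = 0.00673) and 2.79-fold higher in Sca-1Lo (adjusted p = 0.0462). With the replicate number, taken to pair Sca-1Lo and Sca-1Neg, as a block it was not called in Sca-1Lo (adjusted p = 0.113).

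Eng (endoglin) and Acvrl1 (ALK1) form the endothelial receptor of BMP9. Eng read 529, 643 and 748 in Sca-1Hi samples and 326, 335, 495 and 531 in Sca-1Lo samples, against 85.6, 115, 170.5 and 305 in Sca-1Neg samples. Every Sca-1 positive array lay above every Sca-1Neg array, and Eng was called in Sca-1Hi (4.21-fold higher, adjusted p = 0.00549) but not in Sca-1Lo (log2 difference 1.45 ± 0.37, adjusted p = 0.0647). With the same assumed pairing as a block Eng was called in Sca-1Lo too (1.45 ± 0.24, adjusted p = 0.0252). At its other probe set Eng was called in Sca-1Lo without the block (log2 difference 2.01, adjusted p = 0.0343). Acvrl1, called in Sca-1Hi alone, read 362, 595 and 652 in Sca-1Hi samples and 146, 148, 498 and 439.5 in Sca-1Lo samples, against 73.3, 81.6, 82.4 and 144 in Sca-1Neg samples. It was 5.66-fold higher in Sca-1Hi (adjusted p = 0.00372), while the log2 difference in Sca-1Lo was 1.51 ± 0.41 (adjusted p = 0.085). Cd93, a lectin-like receptor of endothelium and of myeloid cells, read 2323, 3626 and 5085 in Sca-1Hi samples and 1205, 1128, 2569.6 and 3673 in Sca-1Lo samples, against 427, 466, 222 and 1693 in Sca-1Neg samples. Its fold in Sca-1Hi was 6.69 (adjusted p = 0.0265), a call that ended when any of 5 arrays was left out (Sca-1Hi replicate 2 or 3, or Sca-1Neg replicate 1, 2 or 3, with adjusted p = 0.0512 to 0.102). In Sca-1Lo Cd93 overlapped Sca-1Neg replicate 4 and was not called (log2 difference 1.85 ± 0.67, adjusted p = 0.21).

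The transcription factors were the group with the fewest calls, 3 of 5 in Sca-1Hi and 2 of 5 in Sca-1Lo. Erg, an ETS factor that maintains the endothelial program, read 282, 182 and 348 in Sca-1Hi samples and 104, 73.4, 150.0 and 162 in Sca-1Lo samples, against 17.7, 18.7, 10.6 and 24.4 in Sca-1Neg samples. It was at least 12.4-fold higher in Sca-1Hi (adjusted p = 0.00318) and at least 5.55-fold higher in Sca-1Lo (adjusted p = 0.0423), as bounds against a Sca-1Neg mean under 20. Erg was not called at its other probe set (log2 difference -0.38 in Sca-1Hi, adjusted p = 0.754, and 0.25 in Sca-1Lo, adjusted p = 0.929). Its relative Fli1 read 295, 149 and 305 in Sca-1Hi samples and 164, 141, 216 and 216 in Sca-1Lo samples, against 71.5, 126, 7.87 and 24.9 in Sca-1Neg samples. In Sca-1Hi it was 6.51-fold higher (adjusted p = 0.0373), which was no longer called without any 1 of 6 arrays (all 3 of Sca-1Hi, Sca-1Lo replicate 1, and Sca-1Neg replicates 3 and 4, with adjusted p = 0.0508 to 0.117), and in Sca-1Lo the log2 difference was 2.31 ± 0.72 (adjusted p = 0.131). Tal1, a basic helix-loop-helix factor of blood and endothelial precursors, read 157, 148 and 155 in Sca-1Hi samples and 80.2, 94.3, 123 and 111 in Sca-1Lo samples, against 44.2, 54.1, 33.0 and 26.7 in Sca-1Neg samples. It was 4.02-fold higher in Sca-1Hi (adjusted p = 0.00151) and 2.64-fold higher in Sca-1Lo (adjusted p = 0.0247).

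Lyl1 and Prox1 did not share the pattern. Lyl1, a factor close to Tal1 that is also active in blood cells, read 81.7, 68.1 and 68.3 in Sca-1Hi samples and 61.6, 58.4, 51.4 and 61.1 in Sca-1Lo samples, against 83.6, 133, 41.5 and 49.3 in Sca-1Neg samples. Its log2 differences were 0.07 ± 0.38 in Sca-1Hi (adjusted p = 0.929) and -0.25 ± 0.35 in Sca-1Lo (adjusted p = 0.849). On the linear scale, but not on the log2 scale, it was the member with its highest mean in Sca-1Neg. Prox1, the factor that sets lymphatic identity, read 35.5, 29.3 and 29.9 in UGE, 29.3, 24.7 and 16.3 in Sca-1Hi and 34.1, 30.4, 19.4 and 30.8 in Sca-1Lo, against 26.6, 32.1, 22.4 and 11 in Sca-1Neg. UGE lay at or above the highest Sca-1Hi signal, the other groups overlapped at this low level, and Prox1 was not called in any of the 5 comparisons.

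Of 10 genes of secreted, coagulation, transport and signalling proteins 9 were called higher in each gate. Egfl7, a factor that endothelium secretes, read 1408, 1406 and 2129.5 in Sca-1Hi samples and 626, 674, 1312 and 1213 in Sca-1Lo samples, against 59.9, 91.5, 93.5 and 63.1 in Sca-1Neg samples. It was 21.4-fold higher in Sca-1Hi (adjusted p = 3.27e-05) and 12.0-fold higher in Sca-1Lo (adjusted p = 4.89e-04). Vwf, von Willebrand factor, which endothelium stores and releases for platelet adhesion, read 1797, 2072 and 2734 in Sca-1Hi samples and 604, 682, 1262 and 1481 in Sca-1Lo samples, against 100.5, 205, 214 and 343 in Sca-1Neg samples, and was 11-fold higher in Sca-1Hi (adjusted p = 0.00141) and 4.75-fold higher in Sca-1Lo (adjusted p = 0.0319). Thbd, thrombomodulin, which turns thrombin to an anticoagulant role, read 838, 1503 and 2098 in Sca-1Hi samples and 449.5, 384, 1250.3 and 1658 in Sca-1Lo samples, against 57.9, 103, 92.6 and 196 in Sca-1Neg samples, and was 13.5-fold higher in Sca-1Hi (adjusted p = 0.0053) and 7.58-fold higher in Sca-1Lo (adjusted p = 0.0414). None of the 7 Sca-1 positive arrays overlapped Sca-1Neg in these genes.

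Plvap, which forms the diaphragms of fenestrae and caveolae, read 2730.2, 3993 and 4684 in Sca-1Hi samples and 1999, 1307, 3510.4 and 3342 in Sca-1Lo samples, against 194, 322, 364 and 396 in Sca-1Neg samples. It was 12.0-fold higher in Sca-1Hi (adjusted p = 0.00694) and 7.64-fold higher in Sca-1Lo (adjusted p = 0.0409). Nos3, the endothelial nitric oxide synthase, read 507, 818 and 859 in Sca-1Hi samples and 284, 268, 506 and 597 in Sca-1Lo samples, against 60.0, 102, 83.7 and 75.8 in Sca-1Neg samples, and was 8.99-fold higher in Sca-1Hi (adjusted p = 0.00204) and 4.94-fold higher in Sca-1Lo (adjusted p = 0.0261). Aqp1, a water channel of capillary endothelium, read 1650.2, 1451 and 2319 in Sca-1Hi samples and 1608, 1114, 2181 and 3817 in Sca-1Lo samples, against 97.7, 116, 145 and 222 in Sca-1Neg samples, and was 12.8-fold higher in Sca-1Hi (adjusted p = 2.77e-04) and 14.2-fold higher in Sca-1Lo (adjusted p = 4.90e-04). Of 6 platelet and megakaryocyte markers none was called in either gate (limma, with 0 at an unadjusted p under 0.05), at summed signals of 580.1 to 802 in Sca-1Hi and 389 to 604 in Sca-1Lo, against 369 to 1199 in Sca-1Neg. Their part in the Vwf signal was not tested.

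Esm1, a proteoglycan of sprouting tip cells, read 57.9, 52.3 and 115 in Sca-1Hi samples and 114, 79.8, 283 and 209.7 in Sca-1Lo samples, against 1.44, 0.921, 3.52 and 7.38 in Sca-1Neg samples. Against Sca-1Neg signals all under 20 it was at least 3.52-fold higher in Sca-1Hi (adjusted p = 7.30e-04) and at least 7.62-fold higher in Sca-1Lo (adjusted p = 4.90e-04). Gpihbp1, which carries lipoprotein lipase to the capillary surface, read 301, 70.7 and 143 in Sca-1Hi samples and 294, 282, 171 and 278 in Sca-1Lo samples, against 43.8, 58.8, 13.9 and 28.9 in Sca-1Neg samples. It was 4.54-fold higher in Sca-1Hi (adjusted p = 0.0184) and 7.85-fold higher in Sca-1Lo (adjusted p = 0.00901), and the call in Sca-1Hi ended without Sca-1Hi replicate 1 or 3 (adjusted p = 0.0565 and 0.07). Rasip1, a Ras-interacting protein needed for vessel lumens, read 70.3, 155 and 258 in Sca-1Hi samples and 52.6, 73.8, 108 and 147 in Sca-1Lo samples, against 15.6, 19.1, 32.5 and 7.34 in Sca-1Neg samples, and was at least 6.26-fold higher in Sca-1Hi (adjusted p = 0.0026) and at least 3.93-fold higher in Sca-1Lo (adjusted p = 0.0223). Esm1, Gpihbp1, Aqp1, Lyve1, Calcrl and Prox1 were the members with a higher mean log2 signal in Sca-1Lo than in Sca-1Hi.

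Lyve1, the hyaluronan receptor of lymphatic endothelium and of some macrophages, read 440.4, 767 and 783 in Sca-1Hi samples and 504, 341, 885 and 1229 in Sca-1Lo samples, against 104, 304, 143 and 626 in Sca-1Neg samples. The groups overlapped, and with log2 differences of 1.48 ± 0.68 in Sca-1Hi (adjusted p = 0.168) and 1.51 ± 0.62 in Sca-1Lo (adjusted p = 0.29) it was not called. The 6 members not called in Sca-1Hi were Lyve1, Prox1, Flt4, Esam, Calcrl and Lyl1. The 10 not called in Sca-1Lo were these 6 and Eng, Acvrl1, Cd93 and Fli1.

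**Figure D3:**
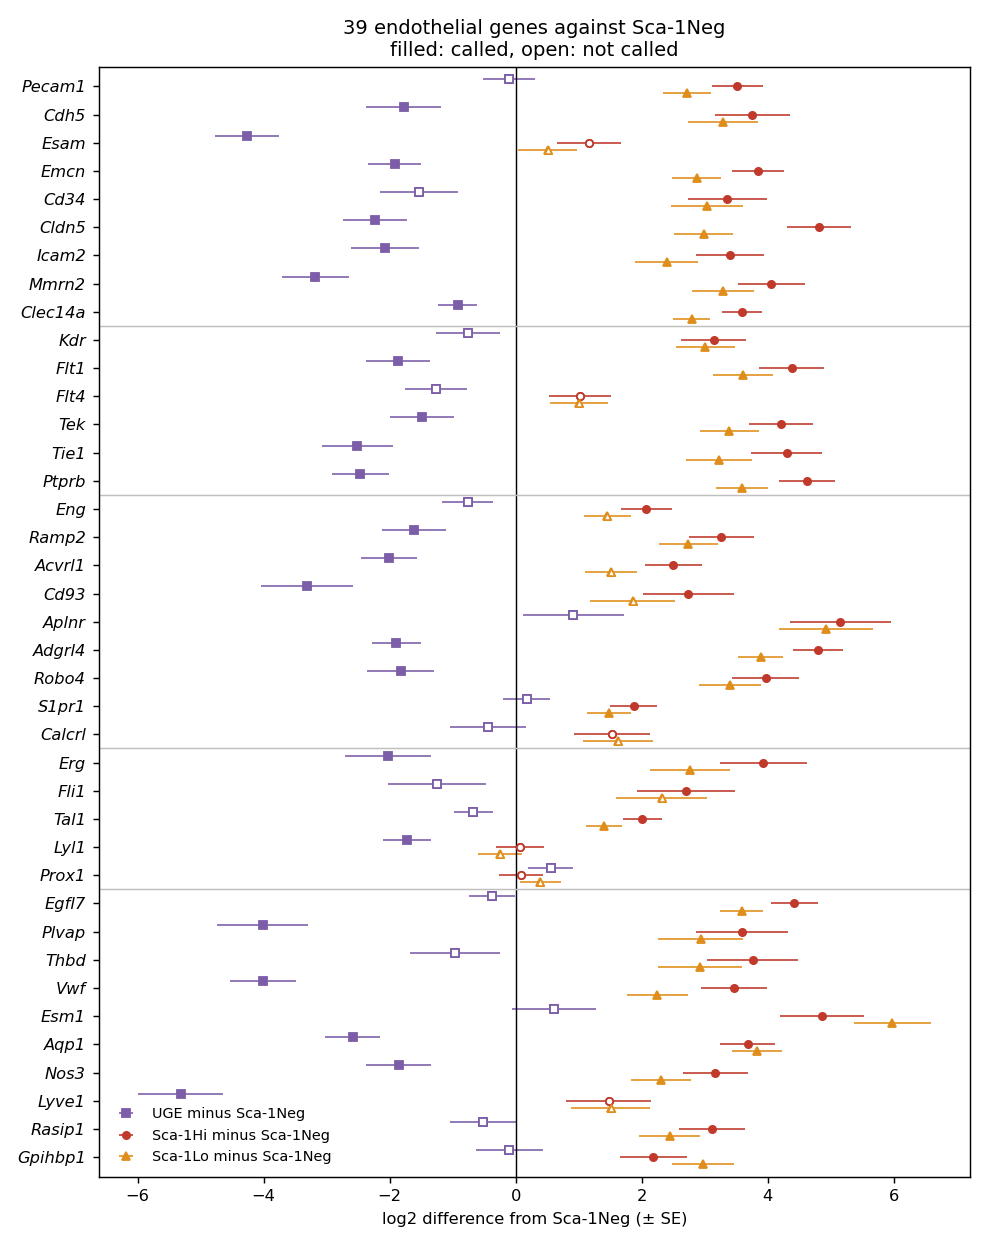
Log2 difference from Sca-1Neg (± SE of the limma fit) of the 39 endothelial genes in UGE (squares), Sca-1Hi (circles) and Sca-1Lo (triangles). Filled points are called, open points are not. All but 6 circles and 10 triangles are filled on the right of 0, and 23 squares are filled on the left of it.

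The calls in Sca-1Hi held better against the loss of an array than those in Sca-1Lo. Of the 33 called in Sca-1Hi, 30 were called whichever of the 14 arrays was left out, the others being Cd93, Fli1 and Gpihbp1. Of the 29 called in Sca-1Lo, 19 were. The 10 that were lost at least once were Cd34, Erg, Icam2, Nos3, Plvap, Rasip1, S1pr1, Tal1, Thbd and Vwf, with adjusted p-values of 0.0501 to 0.146 when not called. The count in Sca-1Lo was 19 without Sca-1Lo replicate 3, without Sca-1Lo replicate 4 or without Sca-1Neg replicate 1.

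The Sca-1Lo arrays differed among themselves by the study's own sample numbers. These numbers, 1 to 5, stand in the columns of a supplementary table of the study, were assigned to arrays where the table's values matched theirs, and are of unstated meaning. Sca-1Lo replicates 3 and 4 bear the numbers 4 and 5, and both lay above replicates 1 and 2 (numbers 1 and 2) in 34 of the 39 members. The median member signal was 801 and 1211 on replicates 3 and 4 and 449 and 384 on replicates 1 and 2. Arrays numbered 3 to 5 exceeded those numbered 1 and 2 by a median of 1.08 on the log2 scale in Sca-1Lo, 0.40 in Sca-1Hi (1 array numbered 1) and 0.20 in Sca-1Neg. The summed signal of 12 leukocyte markers moved the other way in Sca-1Lo, with 2696 and 2657 on replicates 3 and 4 and 10713 and 7112 on replicates 1 and 2, and that of 8 fibroblast markers moved with the members, with 51902 and 66401 on replicates 3 and 4 and 14026 and 8015 on replicates 1 and 2. Also higher on replicates 3 and 4 were the sum of 6 basal epithelial markers (27667 and 26797, with 14874 and 8772 on replicates 1 and 2), Ly6a (8348 and 8504.5, with 5820.2 and 3129.5) and the log2 3′ to 5′ ratio of Gapdh (3.10 and 3.22, with 2.54 and 1.98). Their part in the result was not tested. Within a number the members were higher than in Sca-1Neg in each case, by a median log2 difference of 3.52 (number 1) and 3.98 (number 4) in Sca-1Hi, and of 2.58, 1.95, 3.41 and 3.08 (numbers 1, 2, 4 and 5) in Sca-1Lo. With the adult arrays numbered 1 and 2 alone 12 members were called in Sca-1Lo, and with those numbered 3 to 5 alone 28 in Sca-1Hi and 18 in Sca-1Lo. In the first of these subsets Sca-1Hi has 1 array, replicate 1, and the 20 members called there assume that it varies like the other groups.

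Sca-1Hi and Sca-1Lo could not be told apart by calls. No member was called between them by limma, with 8 at an unadjusted p under 0.05 and also none called by the methods' t-test, and among all genes 0.0817% were called higher in Sca-1Hi. The differences leaned one way, with 33 of 39 above 0 and a median of 0.66 on the log2 scale, beside -0.05 over all genes. All Sca-1Hi arrays lay above all Sca-1Lo arrays for 10 members (4.91% of all genes), namely Pecam1, Egfl7, Erg, Vwf, Cldn5, Icam2, Mmrn2, Clec14a, Tal1 and Lyl1. Cldn5 had the widest gap, with 2727, 4443 and 4278 in Sca-1Hi and 601, 667, 1789 and 1726 in Sca-1Lo, a log2 difference of 1.82 ± 0.51 (adjusted p = 0.301). At the other end stood Esm1, with 57.9, 52.3 and 115 in Sca-1Hi and 114, 79.8, 283 and 209.7 in Sca-1Lo (-1.11 ± 0.66, adjusted p = 0.598). Within a study number the median difference was 0.85 (number 1, Sca-1Hi and Sca-1Lo replicates 1) and 0.59 (number 4, replicates 3). With 3 and 4 arrays, differences of this size were not resolved.

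In UGE, 23 of the 39 members were called lower than in Sca-1Neg and none higher. Among all genes 12.9% were called lower, and 2792 of the 17136 were called higher. The median log2 difference of the members was -1.73, and -1.35 with signals raised to at least 20, beside 0.07 over all genes. All UGE arrays lay below all Sca-1Neg arrays for 20 members (15.8% of all genes). Many members were at the bottom of the scale in UGE, with 34, 14 and 19 of the 39 above a signal of 20 on UGE replicates 1, 2 and 3, while 32 to 35 were above it on the Sca-1Neg arrays.

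Esam, Plvap, Vwf and Lyve1 were among the genes called lower in UGE. Esam read 97.0, 39.7 and 44.3 in UGE, 19.2-fold lower than in Sca-1Neg (adjusted p = 4.74e-05). Plvap read 88.1, 4.55 and 17.4, 16.1-fold lower (adjusted p = 0.00115), and Vwf read 29.8, 9.45 and 6.43, at least 8.63-fold lower (adjusted p = 9.39e-05). For Lyve1 the UGE signals were 13.2, 6.84 and 2.17, at least 11.5-fold lower (adjusted p = 7.70e-05). None of these 4 genes had a UGE array within the Sca-1Neg range. The falls of Cd93 (9.95-fold), Mmrn2 (9.05-fold), Aqp1 (6.01-fold), Cldn5 (4.71-fold), Icam2 (4.21-fold), Acvrl1 (4.04-fold), Emcn (3.79-fold), Flt1 (3.65-fold), Nos3 (3.62-fold), Lyl1 (3.31-fold), Tek (2.80-fold) and Clec14a (1.89-fold) were also called with no overlap. So were those of Ptprb (at least 3.60-fold), Adgrl4 (at least 2.66-fold) and Tie1 (at least 1.45-fold), whose UGE means lay under 20. One other Ptprb probe set had a log2 difference of 1.41 (adjusted p = 0.0751), not called. The other Adgrl4 set had -0.96 (adjusted p = 0.147), also not called. Cdh5 (3.43-fold), Ramp2 (3.07-fold), Robo4 (at least 1.81-fold) and Erg were called although UGE replicate 1 lay within their Sca-1Neg range. Erg averaged 8.37 in UGE and 17.9 in Sca-1Neg, both under 20, so that its fall has no size here. The bound of Tie1 was smaller than the fold that a call needs, and its UGE signals were all under 20, against 14.6 to 43.8 in Sca-1Neg. Of the Erg signals in these groups only UGE replicate 1 (21.4) and Sca-1Neg replicate 4 (24.4) passed 20.

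The other 16 members were not called between UGE and Sca-1Neg, among them Cd34, whose UGE arrays all lay below Sca-1Neg. Kdr read 265, 56.9 and 91.7 in UGE, with a log2 difference from Sca-1Neg of -0.76 ± 0.51 (adjusted p = 0.293), and Pecam1 read 8.54, 5.91 and 5.56, with -0.10 ± 0.41 (adjusted p = 0.876), both populations lying below 20. Differences above 0 were found in Aplnr (0.91), Esm1 (0.61), Prox1 (0.55) and S1pr1 (0.18). With the adult arrays numbered 1 and 2 alone, Esm1 was called higher in UGE (1.68, adjusted p = 0.0242), at signals under 20 in both populations.

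The count in UGE leaned on single arrays. It was 27 without UGE replicate 1, the array with the highest endothelial signals, when Kdr, Cd34, Thbd and Tal1 were called too. It was 16 without UGE replicate 2 and 15 without UGE replicate 3. Of the 23 calls 14 were made whichever array was left out. The summed signal of the 8 fibroblast markers was 17209 on UGE replicate 1, against 6194 and 6867 on UGE replicates 2 and 3, and that of the 12 leukocyte markers 2772, against 2420.3 and 1946. Their part in the spread of the UGE arrays was not tested.

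Set directly against Sca-1Hi, 38 of the 39 members were called lower in UGE, where 12.0% of all genes were. For the same 38 every UGE array lay below every Sca-1Hi array (23.9% of all genes), and Prox1 was the exception. The median log2 difference was -4.89, and -4.73 with signals raised to at least 20, beside 0 over all genes. Plvap was 194-fold lower (adjusted p = 1.32e-05). Mmrn2 was 151-fold lower (adjusted p = 1.77e-06), Cldn5 132-fold (adjusted p = 1.53e-06) and Vwf at least 94.8-fold (adjusted p = 1.26e-06). Each of these genes had a UGE array under 20, and the order of these genes is not resolved. The smallest called differences were in S1pr1 (3.24-fold), Lyl1 (3.47-fold) and Calcrl (3.91-fold). Calcrl, at 390.2, 309 and 265 in UGE and 845, 1136 and 1980.2 in Sca-1Hi (adjusted p = 0.0385), was no longer called when any UGE array or Sca-1Hi replicate 2 or 3 was left out (adjusted p = 0.0574 to 0.136).

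Ordered by mean signal on the linear scale, 30 of the 39 members ran Sca-1Hi, Sca-1Lo, Sca-1Neg, UGE from high to low. In 4 more Sca-1Lo stood before Sca-1Hi with the rest unchanged. Aplnr and S1pr1 ran Sca-1Hi, Sca-1Lo, UGE, Sca-1Neg, and Esm1 ran Sca-1Lo, Sca-1Hi, UGE, Sca-1Neg. Lyl1 began with Sca-1Neg and Prox1 with UGE. On the log2 scale the mean of Lyl1 was highest in Sca-1Hi. Since no member was called between Sca-1Hi and Sca-1Lo, the order of these neighbours is not resolved. Of 28 further probe sets that 17 of the members have, 25 had the call of the gene's own probe set in Sca-1Hi versus Sca-1Neg, 25 in Sca-1Lo versus Sca-1Neg, 16 in UGE versus Sca-1Neg and 23 in UGE versus Sca-1Hi, and none had the opposite call. Those that differed in Sca-1Hi versus Sca-1Neg were sets of Cdh5, Erg and Cd93 (Cd93 3.04, adjusted p = 0.0501), all not called. In Sca-1Lo versus Sca-1Neg they were the sets of Cdh5 and Erg, not called, and that of Eng, called. In UGE versus Sca-1Neg they were sets of Cdh5 (-0.12), Erg, Flt1, Acvrl1, Cd93, Adgrl4, Mmrn2, Clec14a and Ptprb, not called, and that of Fli1, called lower. In UGE versus Sca-1Hi they were sets of Cdh5 (-0.34, adjusted p = 0.71), Erg (-0.26, adjusted p = 0.824), Flt4 and Calcrl, all not called.

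Across the 11 adult arrays the members moved together. Over the 741 pairs the median Pearson correlation of log2 signals was 0.897 (Spearman 0.864), with a lower quartile of 0.752 and an upper quartile of 0.962, while members and all other genes had a median of 0.06. The arrays share their groups, and the correlation holds the difference between gates. With the mean of each group removed the median was 0.611 (Spearman 0.636), and over the 7 Sca-1Hi and Sca-1Lo arrays alone it was 0.775 (Spearman 0.679). Emcn and Nos3 were the closest pair (0.997, and 0.964 with group means removed), followed by Adgrl4 with Mmrn2 and Flt1 with Mmrn2 (0.996 each). Lyl1 and Prox1 stood outside, with median correlations to the other members of -0.10 and 0.09, and Esam (0.615) and Flt4 (0.689) came next. Within the groups Gpihbp1 (-0.13), S1pr1 (0.14), Fli1 (0.12), Pecam1 (0.21) and Tal1 (0.28) followed the others little, and Prox1 ran against them (-0.43). These are descriptions of 11 arrays, with no test.

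**Figure D4:**
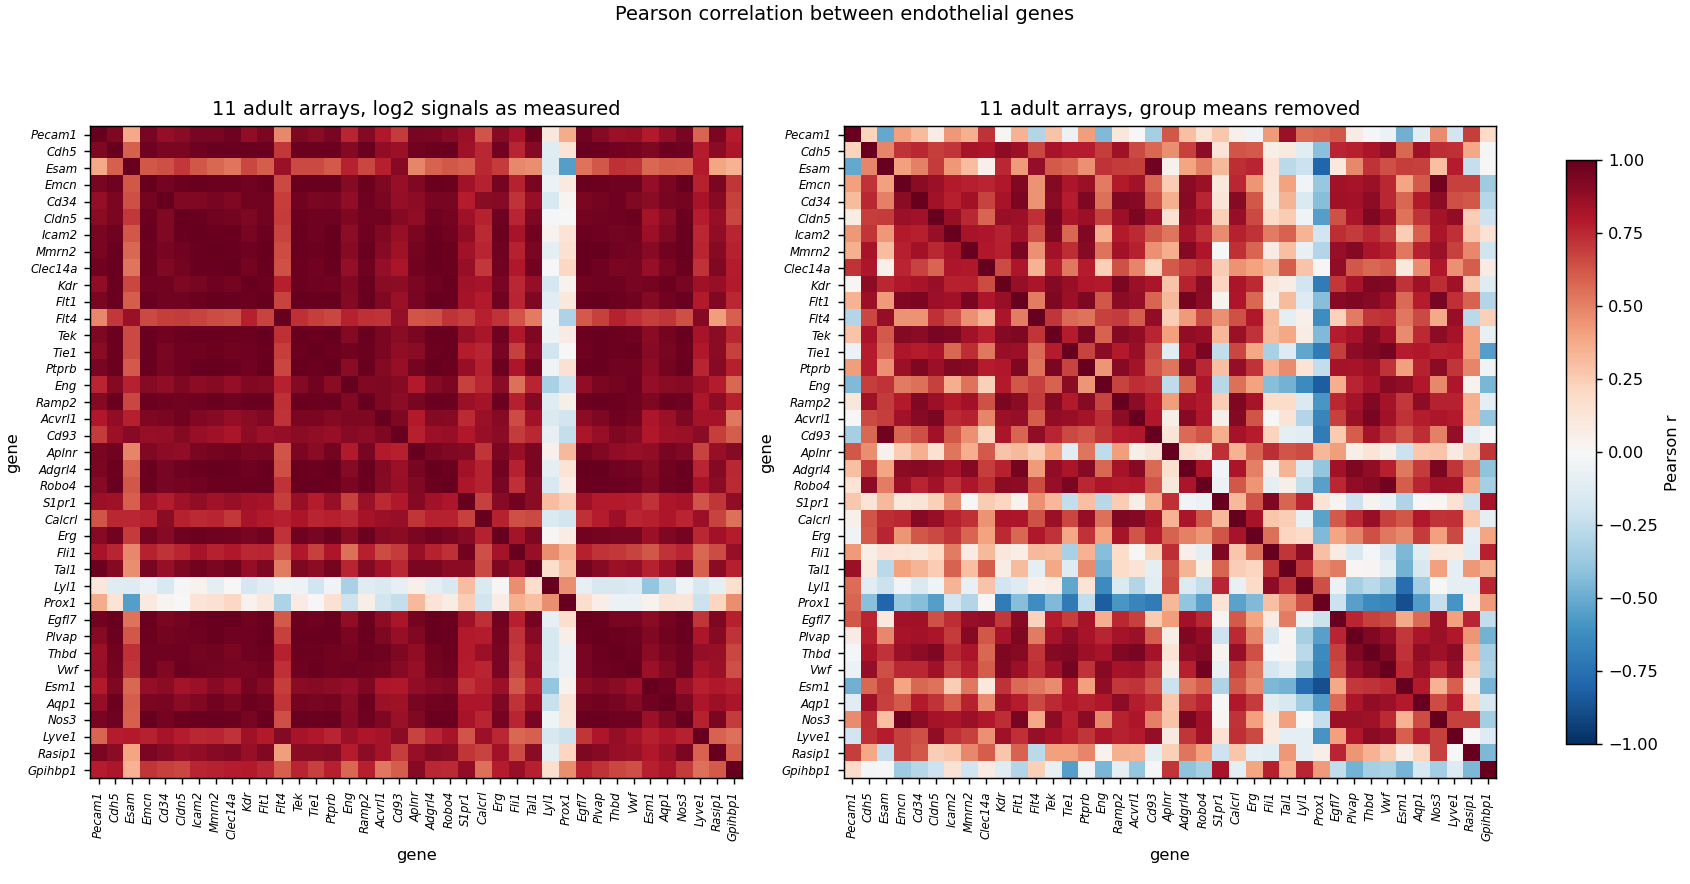
Pearson correlation (colour) between the 39 endothelial genes over the 11 adult arrays, with log2 signals as measured (left) and with each group's mean removed (right). Rows and columns are genes in blocks by role. On the left only Lyl1 and Prox1 are pale throughout, and the median over pairs is 0.897, against 0.611 on the right.

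Ligands and partners of these receptors did not follow them as a group. Of 18 such genes 3 were called higher and 1 lower in Sca-1Hi than in Sca-1Neg. Among all 17136 genes tested 1047 were called higher and 890 lower in this comparison. Vegfc, a ligand of Flt4 and Kdr, averaged 1109.6 ± 128 in Sca-1Hi and 232 ± 112 in Sca-1Neg (SD, n = 3 and 4), a log2 difference of 2.37 ± 0.41 (adjusted p = 0.00295). Efnb2, an ephrin of arterial endothelium and of many epithelia, differed by 1.67 ± 0.30 (adjusted p = 0.00373) and Apln, the ligand of Aplnr, by 1.01 ± 0.29 (adjusted p = 0.0399). Angpt2, a ligand of Tek, was lower, at 120.3 ± 54.8 in Sca-1Hi and 982 ± 678 in Sca-1Neg (-2.82 ± 0.66, adjusted p = 0.0157). In Sca-1Lo none of the 18 was called by limma, with 4 at an unadjusted p under 0.05. In UGE 1 was called higher, Efnb2 (3.24 ± 0.30, adjusted p = 5.74e-06), and 9 were called lower, led by Pgf (-3.80), Mmrn1 (-3.77) and Adm (-2.80). Mmrn1 is on the list without a receptor of its own named among the members. Among all 17136 genes 2792 were called higher and 2204 lower in UGE.

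Other genes known from endothelium, 33 of them tested, moved with the members in part. In Sca-1Hi 16 were called higher than in Sca-1Neg and 1 lower, and in Sca-1Lo 10 were called higher and 1 lower. Among all 17136 genes 1047 were called higher and 890 lower in Sca-1Hi, and 288 higher and 142 lower in Sca-1Lo. Sox17 and Sox18, SOX factors of arterial and other endothelium, were higher in Sca-1Hi by 4.88 ± 0.74 (adjusted p = 0.00142) and 4.08 ± 0.52 (adjusted p = 4.81e-04) on the log2 scale, with Ushbp1 (4.72 ± 0.61, adjusted p = 5.27e-04) and Arhgef15 (at least 15.7-fold, adjusted p = 0.00173). In Sca-1Lo the largest changes were those of Ushbp1 (3.82), Sox17 (3.71), Arhgef15 (at least 8.03-fold higher) and Fabp4, a fatty acid binding protein of capillaries and fat cells (3.25 ± 0.42, adjusted p = 0.0021). The gene called lower in both gates was Gja4, a connexin of arterial endothelium that vessel muscle also makes, at 189 to 379 in Sca-1Hi and 132 to 327 in Sca-1Lo, against 453 to 3633 in Sca-1Neg. In UGE 13 of the 33 were called lower than in Sca-1Neg, with 12.9% of all genes called lower. They were led by Tm4sf1 (-6.08), Gja4 (-4.98), Mef2c (-4.78) and Klf2 (-4.71). Sox7 was called higher (2.42 ± 0.39, adjusted p = 5.21e-04), as were 2792 of all 17136 genes.

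Markers of other cell types differed between the same samples. Of 12 leukocyte markers 11 were called lower in Sca-1Hi than in Sca-1Neg and 2 in Sca-1Lo, where 890 and 142 of all 17136 genes were. The summed signal of these markers was 1232 to 2962 in Sca-1Hi and 2657 to 10713 in Sca-1Lo, against 7648 to 51535 in Sca-1Neg. Ptprc (CD45), which defines leukocytes, read 2.92 to 14.6 in Sca-1Hi, against 113 to 2619 in Sca-1Neg (at least 35.8-fold lower, adjusted p = 5.03e-04), and Coro1a, Itgb2 and Laptm5 were the next. C1qa and Cx3cr1, macrophage genes, were those called lower in Sca-1Lo. Of 11 pericyte and smooth muscle markers 7 were called lower in Sca-1Hi, led by Rgs5 (-3.86), Cspg4 (-3.56), Kcnj8 (-3.27) and Myh11 (-3.03), and 2, Cspg4 (-2.76) and Notch3 (-2.69), in Sca-1Lo. Their sum was 8531 to 25039 in Sca-1Hi and 14379 to 27482 in Sca-1Lo, against 28516 to 99141 in Sca-1Neg. The summed signal of the 39 members, 37299.7 to 63253 in Sca-1Hi and 18355 to 49812 in Sca-1Lo, against 4185 to 10174 in Sca-1Neg, ran opposite to both between the gates and Sca-1Neg.

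Basal epithelial markers were high in both gates, as the endothelial genes were. All 6 basal epithelial markers were called higher in Sca-1Hi than in Sca-1Neg and 3 in Sca-1Lo, where 6.11% and 1.68% of all genes were. Their sums were 17992 to 27827 in Sca-1Hi and 8772 to 27667 in Sca-1Lo, against 1770.2 to 8022 in Sca-1Neg. UGE had basal sums of 21716 to 28406 with member sums of 1141 to 2918, so that basal and endothelial genes parted there. Of 6 luminal and general epithelial markers 2 were called higher in Sca-1Hi and 0 in Sca-1Lo, and their sums overlapped, with 21209 to 27151 in Sca-1Hi and 15732 to 27647 in Sca-1Lo, against 7658 to 30987 in Sca-1Neg. The Sca-1 positive samples thus carried transcripts of basal epithelium and endothelium, and bulk signals do not say how many cells of each the gates held. Of 8 fibroblast markers none was called in Sca-1Hi or Sca-1Lo by limma, with 0 and 2 at an unadjusted p under 0.05.

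**Figure D5:**
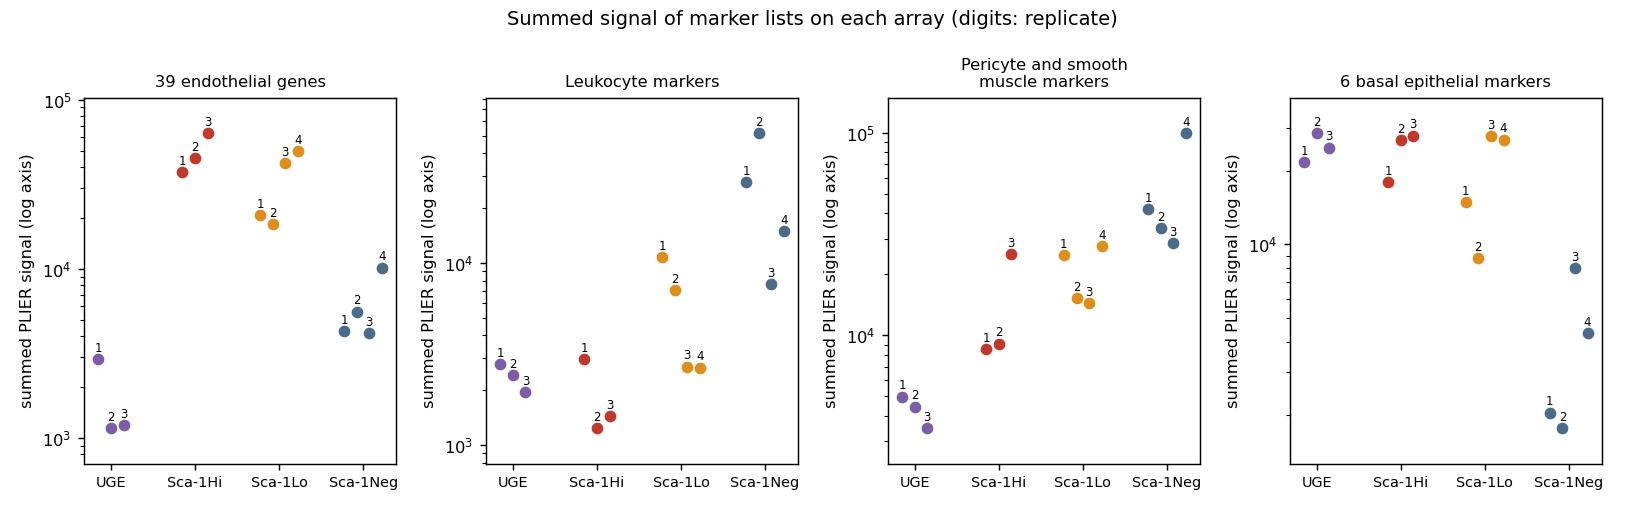
Summed PLIER signal (log axis) of the 39 endothelial genes, 12 leukocyte markers, 11 pericyte and smooth muscle markers and 6 basal epithelial markers in UGE, Sca-1Hi, Sca-1Lo and Sca-1Neg, with points for arrays and digits for replicates. The endothelial sums of all Sca-1Hi and Sca-1Lo arrays, 18355 and above, lie over those of UGE and Sca-1Neg, 10174 and below, while the leukocyte sums are highest in Sca-1Neg.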

How the data were processed

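RNA of 3 UGE, 3 Sca-1Hi, 4 Sca-1Lo and 4 Sca-1Neg samples was labelled in 2 cycles and hybridized to Affymetrix MOE430 2.0 arrays. The deposited intensity values are PLIER signals, computed by the authors in ArrayAssist from the scanner files. The step that normalizes between arrays is not given in the sources used here, and neither is the meaning of the study's sample numbers. Of 45101 probe sets 34945 name 1 gene, 932 several and 9160 none (the 64 controls left out), and genes were named from the first. Ly6a was named through the study's supplementary table.

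Signals were taken to log2 with nothing added. Testing kept 41031 probe sets, those that passed a signal of 20 on 1 array or more, in 1 limma fit of the 4 group means (limma 3.58.1, R 4.3.3; lmFit and eBayes), with Benjamini-Hochberg adjustment over all of them, a departure from the methods' chain of ANOVA, SAM and t-test. A call needs an adjusted p under 0.05 and a log2 difference over 0.81 in size (the methods' fold threshold). Where a group mean was at or below 20, folds are bounds with signals raised to 20. The fit was tested on simulated data. The number of arrays, 3 or 4 a group, limits the precision. All 39 members passed the filter on low signals. Replicate numbers of the labels were taken to pair Sca-1Lo with Sca-1Neg, where deviations from the group means correlated at 0.18, 0.41, 0.12 and 0.56 in the 4 pairs. Pairs of unlike number were not compared, so that a shift shared by several replicates cannot be told from a pairing. All members may be named, with the 5 defining genes and every called member given array by array, and up to 4 called genes of each other list. The members and lists were chosen with earlier results of these data known. Python 3.11.15 was used with pandas 2.3.3 for tables and matplotlib 3.10.9 for plots. Alternatives were other filters, 16 added before log2, quantile and 75th percentile scaling, a t-test over all probe sets kept, only the groups compared, blocks, an intensity trend with robust estimates, the mean of a gene's probe sets, subsets by study number, and each array left out.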

Additional observations from a re-analysis of the deposited data

Results flagged for a closer look

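In 1 of 78 groups of 4 arrays tested (39 members in Sca-1Lo and Sca-1Neg) an array stood far from the other 3. Gpihbp1, the carrier of lipoprotein lipase on capillaries, read 171 on Sca-1Lo replicate 3, against 278 to 294 on the other Sca-1Lo arrays. On the log2 scale the gap to the nearest array was 0.902 of the whole range, over Dixon's critical ratio at the 95% level. Chance flags about 1 group in 20. On this array and on Sca-1Lo replicate 4, 34 of the 39 members were higher than on Sca-1Lo replicates 1 and 2.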

How the results depend on the processing

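Under the t-test on 2 groups at a time, with Benjamini-Hochberg adjustment over all probe sets kept, 18 members were called in Sca-1Hi versus Sca-1Neg, 0 in Sca-1Lo versus Sca-1Neg and 8 in UGE versus Sca-1Neg, in place of 33, 29 and 23, and 35 of 38 in UGE versus Sca-1Hi. The t-test of the methods followed filters by variation, ANOVA and SAM that were not applied here. With adult arrays numbered 1 and 2 alone 20 were called in Sca-1Hi, where a single array is assumed to vary like the other groups, and 12 in Sca-1Lo. With those numbered 3 to 5 alone 18 were called in Sca-1Lo. These subsets hold fewer arrays. With 1 array left out the counts ran from 30 to 34 in Sca-1Hi, 19 to 30 in Sca-1Lo, 15 to 27 in UGE versus Sca-1Neg and 37 to 38 in UGE versus Sca-1Hi. The median correlation of members was 0.611 with group means removed. With the replicate number as a block 34 members were called in Sca-1Hi (Lyve1 and Esam gained, adjusted p = 0.0327 and 0.0499, and Fli1 lost, 0.0745), 29 in Sca-1Lo (28 of them the same genes, with Eng gained and S1pr1 lost), 19 in UGE versus Sca-1Neg and 38 in UGE versus Sca-1Hi. Only the Sca-1Lo count rests on an assumed pairing. Deviations of Sca-1Hi and Sca-1Neg arrays with the same replicate number correlated at 0.36, -0.30 and -0.06 for replicates 1, 2 and 3. Replicate 2 bears study number 3 in Sca-1Hi and 2 in Sca-1Neg, so that the block joins arrays of unlike study number there. No link of UGE replicates with adult ones is stated. The study number as a block, added after seeing the data, gave 31 in Sca-1Hi and 29 in Sca-1Lo. No member was called between Sca-1Hi and Sca-1Lo under any alternative run, and no called direction turned round.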

Other observations

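The 10 genes outside all lists that followed the mean log2 signal of Pecam1, Cdh5, Kdr, Tek and Tie1 most closely over the 11 adult arrays, among 10846 genes with a mean signal above 100, were Tmem88 (Pearson 0.995), Cyyr1 (0.993), Unc45b (0.992), Exoc3l2 (0.991), Fgd5 (0.989), Abcb1a (0.983), Galnt15 (0.981), Palmd (0.981), Igfbp3 (0.978) and Rasgrp3 (0.977). Their correlations with group means removed were 0.595 (Igfbp3) to 0.910 (Unc45b). Abcb1a, an efflux pump of brain capillaries, averaged 10.7 in UGE, 2129 in Sca-1Hi and 987 in Sca-1Lo, against 115 in Sca-1Neg. Tmem88 averaged 117 in UGE, 2052 in Sca-1Hi and 1303 in Sca-1Lo, against 129.8 in Sca-1Neg. Igfbp3, a binding protein of insulin-like growth factors, averaged 235 in UGE, 2074 in Sca-1Hi and 1407 in Sca-1Lo, against 129 in Sca-1Neg. Unc45b, a myosin chaperone of striated muscle, was chosen by the same measure, with 8.17 in UGE, 739 in Sca-1Hi and 399 in Sca-1Lo, against 40.5 in Sca-1Neg.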
